A study of Mus musculus with 24 samples.

Results

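The insulin-like growth factor (IGF) system was followed at the transcript level in a mouse model of endometriosis, a disease in which endometrium grows outside the uterus. The 10 genes followed are the ligands Igf1 and Igf2, the receptor Igf1r and the binding protein genes Igfbp1 to Igfbp7, taken by gene symbol from a table of 56691 genes. Each symbol matched 1 line of the table, and 9 of the 10 genes passed the filter on low counts, Igfbp1 being the exception. Total RNA was sequenced from 24 libraries in 6 groups of 4, and every group was collected on pregnancy day 3.5 from mice of mixed C57BL/6 and SV129 background that had surgery at 8 weeks of age. The groups were uterus after sham surgery (sham), uterus of mice with endometriosis (eutopic) and the ectopic lesions, with each of these taken 1 or 3 months after the operation.

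All mice at 1 month are labelled fertile, while at 3 months the sham mice are labelled fertile and the mice with endometriosis subfertile. Lesions are labelled Pgrcre/+Rosa26mTmG/+, and eutopic and sham uterus Rosa26mTmG/+. All groups therefore carry the mTmG membrane colour reporter at Rosa26, and the lesions also Cre recombinase from the progesterone receptor gene. The design text gives Cre to the mice with endometriosis as a whole. By the labels, the genotype cannot be told apart from the tissue wherever lesions are compared with uterus. The labels do not tie a library to an animal, so the p-values measure the spread between libraries, which may be partly technical. Mice at 3 months were also older than mice at 1 month.

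As background, IGF1 and IGF2 are secreted growth factors that act through the tyrosine kinase receptor IGF1R. In the rodent uterus, Igf1 is made largely by stroma in response to estrogen and acts on the epithelium. IGF binding proteins hold the ligands in extracellular fluid and can limit or prolong their action, and proteases such as PAPP-A and PAPP-A2 cut binding proteins and free the ligand. IGFBP1 to IGFBP6 bind IGFs with high affinity, whereas IGFBP7 binds them weakly and is found around blood vessels and in stroma.

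The genes lie on 6 mouse chromosomes in the GENCODE annotation of GRCm38. Igfbp2 and Igfbp5 are neighbours on chromosome 1, Igfbp1 and Igfbp3 are neighbours on chromosome 11, where Igfbp4 also lies, and Igf2 and Igf1r share chromosome 7. Igf1 is on chromosome 10, Igfbp6 on chromosome 15 and Igfbp7 on chromosome 5. Upstream sequences are shown for Igfbp2, the gene whose lesion level stood clear of every uterine library, for its chromosomal neighbour Igfbp5, which was not called in any comparison, and for Igfbp7, the binding protein with the highest level per length. Each is 230 bases long, 5′ to 3′ on the gene's strand, from the RefSeq promoter table on GRCm38.p6, and stops short of annotated exons. Capitals mark matches to 3 motifs, each searched on both strands. The GC box was searched as GGGCGG, a binding site of Sp-family factors. The promoter element TATAAA was searched as the second motif. The half-site of the estrogen response element was searched as GGTCA, the third.
Igfbp2, chr1:72824230-72824459, plus strand: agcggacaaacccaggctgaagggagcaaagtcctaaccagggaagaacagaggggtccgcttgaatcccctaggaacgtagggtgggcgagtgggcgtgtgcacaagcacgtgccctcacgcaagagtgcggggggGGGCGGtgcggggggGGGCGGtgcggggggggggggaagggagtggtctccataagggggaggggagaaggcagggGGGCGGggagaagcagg
Igfbp5, chr1:72874886-72875115, minus strand: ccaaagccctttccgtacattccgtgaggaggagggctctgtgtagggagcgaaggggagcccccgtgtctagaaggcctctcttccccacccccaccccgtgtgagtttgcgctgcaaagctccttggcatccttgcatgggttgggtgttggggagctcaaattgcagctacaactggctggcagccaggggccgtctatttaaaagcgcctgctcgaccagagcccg
Igfbp7, chr5:77408066-77408295, minus strand: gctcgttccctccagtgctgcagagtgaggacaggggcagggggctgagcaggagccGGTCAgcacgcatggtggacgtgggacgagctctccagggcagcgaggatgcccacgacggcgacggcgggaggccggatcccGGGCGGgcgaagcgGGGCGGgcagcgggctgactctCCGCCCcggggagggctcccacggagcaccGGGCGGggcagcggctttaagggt

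The Igfbp2 window held 3 GC boxes and neither of the other motifs, at a G and C content of 68.3%. The Igfbp7 window held 4 GC boxes and 1 estrogen response element half-site, at 73.9% G and C. None of the 3 motifs was found in the Igfbp5 window, which was 60.4% G and C. Over 32851 promoter windows of the same length, 29.8% held a GC box, 11.8% the TATAAA element and 33.1% a half-site.

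Libraries held between 45133642 and 59407134 counts in total, and levels are given as CPM, counts scaled to a common library size with TMM factors. The summed level of 6 uterine genes (Esr1, Foxa2, Hand2, Hoxa10, Hoxa11 and Pgr) was 1413 to 1668 CPM in eutopic uterus at 3 months. It was 146, 145, 804 and 420 CPM in lesion libraries 1 to 4 of that time. No gene of the list was at 0, but Esr1 made up 134 and 102 CPM of the sums in libraries 1 and 2. Hoxa10 was 0.842, 13.5, 232 and 111 CPM in these 4 lesion libraries, against 390 to 420 CPM in eutopic uterus at 3 months. Hoxa11 was 0.468, 6.38, 115 and 71.3 CPM, against 250 to 303 CPM. Against at most 17.0 CPM in eutopic uterus at either time, the 7 genes listed for ovarian steroid cells together reached 23006 CPM in the first lesion library at 3 months. In libraries 2, 3 and 4 of that group they summed to 271, 27.2 and 56.7 CPM. In the same way, the sum over 7 genes of skeletal muscle was 41213, 12753 and 6867 CPM in libraries 2, 3 and 4 of that group against at most 164 CPM in eutopic uterus, and that over 7 genes of the exocrine pancreas was 91094 CPM in lesion library 2 at 1 month against at most 7.43 CPM. Sums for macrophages, T cells and adipocytes were above all eutopic libraries in every lesion library except library 1 at 3 months. Macrophage genes summed to 780 to 1865 CPM in lesions at 1 month and 192, 2828, 1633 and 3365 CPM at 3 months, against at most 362 CPM in eutopic uterus. For T cells the sums were 106 to 356 CPM at 1 month and 8.78, 218, 177 and 551 CPM at 3 months, against at most 32.6 CPM. For adipocytes they were 158 to 847 CPM and 63.1, 1766, 369 and 119 CPM, against at most 116 CPM. Content of other cell types thus differed between lesions and uterus and from one lesion library to the next. Its part in the results was not tested, and values without single libraries stand beside the results they change.

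Compared per length of exon, binding protein transcripts were dominated by Igfbp7 in every group. Igfbp7 stood at 529 ± 53.0 CPM per kb in sham uterus at 1 month (mean ± SD, n = 4) and took 41.3% to 45.2% of the summed binding protein level in the 6 groups. Igfbp4, Igfbp5 and Igfbp6 formed a middle tier, with group means between 112 and 228 CPM per kb. Igfbp3 ranged from 31.5 to 71.6 CPM per kb, Igfbp2 in uterus from 0.356 to 0.616 CPM per kb, and Igfbp1 was nearly absent. The summed binding protein level was 1047 ± 49.8 CPM per kb in eutopic uterus and 815 ± 328 CPM per kb in lesions at 3 months (SD, n = 4). Lesion libraries 1, 3 and 4 lay below all uterine libraries in this sum, while library 2 reached 1285 CPM per kb, above every uterine library, so the groups overlapped. Of the ligands, Igf1 stood at 23.3 to 86.5 CPM per kb and Igf2 at 0.0428 to 0.104 CPM per kb as group means, and Igf1r at 6.06 to 9.78 CPM per kb.

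**Figure D1:**
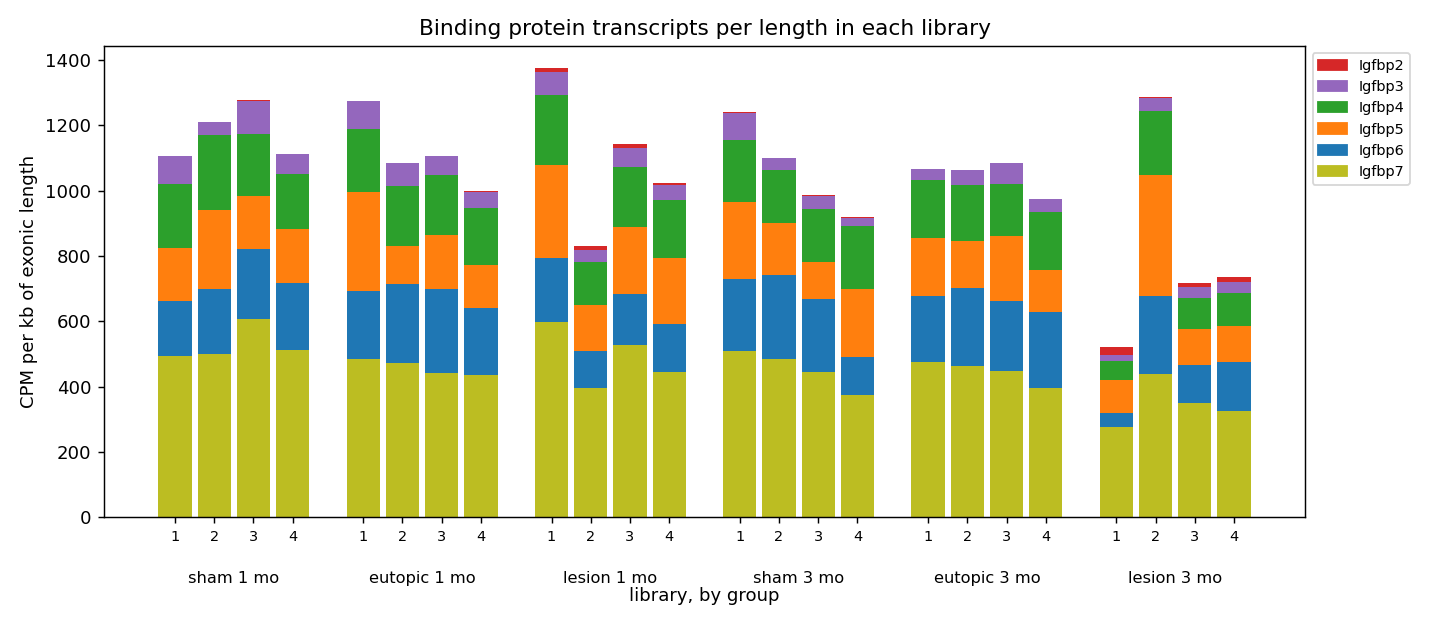
Summed level of the binding protein transcripts in each of the 24 libraries, in CPM per kb of exonic length (y axis, from 0), by library number and group (x axis); colours stand for Igfbp2 to Igfbp7. Igfbp7 is the largest segment in all groups, and Igfbp2, too thin to see in uterus, shows as a red cap on most lesion bars.

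Igf1, the estrogen-responsive ligand, was lower in lesions at 3 months than in uterus. At 3 months its level was 1013, 669, 587 and 285 CPM in sham libraries 1 to 4 and 797, 788, 750 and 798 CPM in eutopic libraries 1 to 4. It was 94.1, 401, 271 and 157 CPM in lesion libraries 1 to 4 of that time. Every lesion library was below every eutopic library, whereas sham library 4 fell within the lesion range. Igf1 was 3.39-fold lower in lesions than in eutopic uterus (log2 fold change -1.76 ± 0.38 (SE), adjusted p = 0.00116, edgeR quasi-likelihood test), and 2.77-fold lower than in sham uterus (-1.47 ± 0.38, adjusted p = 0.00419). In a bulk sample, fewer cells of a type and less RNA per cell cannot be told apart.

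Beside this fall, the summed level of 6 stromal genes (Col6a3, Dcn, Lum, Pdgfra, Thy1 and Vim) was 1513, 8768, 3942 and 5320 CPM in lesion libraries 1 to 4 and 3759 to 5565 CPM in eutopic uterus at 3 months. Lesion library 1, with the lowest Igf1, also had the lowest stromal sum and library 2, with the highest stromal sum, the highest Igf1 of the 4 lesions. The genes of the list were not alike in library 2. Its Dcn (4834 CPM), Vim (2165 CPM) and Lum (918 CPM) were above the eutopic range at 3 months. Pdgfra (313 CPM) and Col6a3 (412 CPM) were below that range, and Thy1 (125 CPM) was within it. The part of stromal content in the difference was not tested. Without lesion libraries 1 and 2 the fold change against eutopic uterus was -1.90 (adjusted p = 0.00115). The call against eutopic uterus was lost only with a term for the replicate number (adjusted p = 0.0714), and that against sham uterus with this term (0.177) and when only the compared groups were fitted (0.0913).

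At 1 month Igf1 was 875, 771, 873 and 909 CPM in sham, 1206, 928, 620 and 627 CPM in eutopic and 645, 262, 482 and 448 CPM in lesion libraries. Lesion library 1 overlapped the 2 lower eutopic libraries, while all lesions lay below all sham libraries. The differences missed the threshold, at -0.88 ± 0.37 against eutopic uterus (adjusted p = 0.0963, edgeR) and -0.90 ± 0.37 against sham uterus (adjusted p = 0.109). Both were called by limma voom with sample weights (0.0188 and 0.00164) and when only the compared groups were fitted, without (0.0435 and 0.0188) and with (0.0330 and 0.0211) a term for the replicate number. The change of the lesion-eutopic difference between the times was -0.88 ± 0.52 (adjusted p = 0.468), so a deeper fall at 3 months than at 1 month was not shown.

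Igf2, the ligand that is abundant in fetal tissue and placenta, was low in every group, with 52 to 111 counts over the 4 libraries of a group. Group means were 0.245 to 0.593 CPM, and the highest single library was lesion library 2 at 3 months with 1.12 CPM. Lesions at 3 months had 0.468, 1.12, 0.298 and 0.486 CPM and eutopic uterus 0.598, 0.353, 0.0965 and 0.142 CPM, with overlapping ranges (0.99 ± 0.64, adjusted p = 0.229, edgeR). At 1 month the difference was 0.10 ± 0.66, with a 95% interval from -1.27 to 1.48.

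The receptor gene Igf1r was at 142, 123, 117 and 131 CPM in eutopic and 108, 107, 92.8 and 99.3 CPM in lesion libraries at 1 month. All 4 lesion libraries were below all eutopic libraries, and also below all sham libraries (118 to 197 CPM). The log2 fold changes were -0.33 ± 0.26 against eutopic uterus (adjusted p = 0.377, edgeR) and -0.55 ± 0.26 against sham uterus (adjusted p = 0.163). Fitted on the compared groups alone, the first was called (-0.35, adjusted p = 0.0167), and likewise with a term for the replicate number (0.0163).

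At 3 months Igf1r was 156, 124, 146 and 110 CPM in eutopic uterus and 315, 93.8, 119 and 128 CPM in lesions. Lesion library 1, the one with the highest ovarian steroid cell sum, was far above the rest. Without it the sign of the difference turned, from 0.29 ± 0.26 (adjusted p = 0.383) to -0.23 (adjusted p = 0.247, edgeR). Lesions at 3 months against 1 month gave 0.69 ± 0.26 (adjusted p = 0.0915). Without single libraries this change ran from 0.16 to 0.90 (adjusted p from 0.0304 to 0.538, edgeR).

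**Figure D2:**
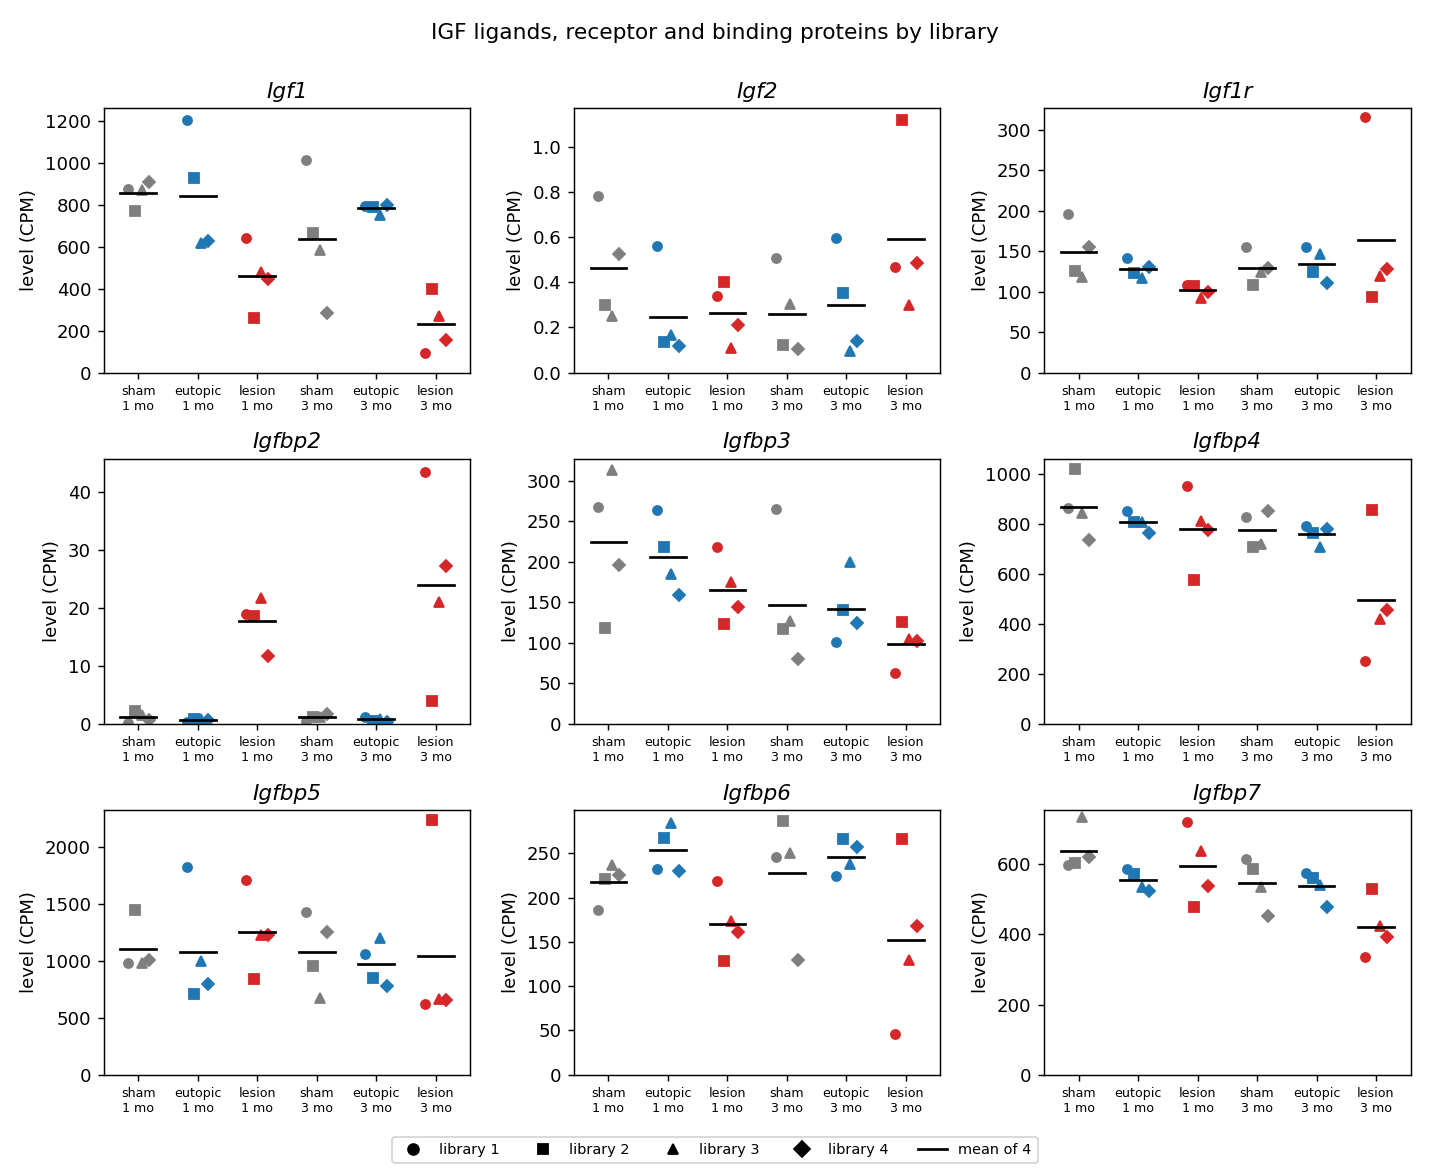
Level of 9 genes in each library (CPM, y axes from 0, 1 panel a gene) for the 6 groups on the x axis; symbols stand for library numbers 1 to 4 and lines for the mean of 4. Igfbp2 is above all uterine libraries in all 8 lesion libraries, and Igf1 in lesions at 3 months lies at 94.1 to 401 CPM, below the eutopic libraries of that time.

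Igfbp2 was the member that rose in lesions at both times. IGFBP2 is a binding protein that is abundant in fetal tissue and in many tumours. At 1 month its level was 0.368, 0.797, 0.778 and 0.687 CPM in eutopic libraries 1 to 4, and 18.8, 18.6, 21.7 and 11.7 CPM in lesion libraries 1 to 4. At 3 months it was 1.18, 0.519, 0.830 and 0.373 CPM in eutopic libraries, and 43.4, 3.89, 21.0 and 27.2 CPM in lesion libraries.

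All 8 lesion libraries exceeded all 16 uterine libraries, the highest of which was sham library 2 at 1 month with 2.18 CPM and the lowest of which had 0.183 CPM. The gene was 26.8-fold higher in lesions than in eutopic uterus at 1 month (4.75 ± 0.70, 95% interval 3.28 to 6.21, adjusted p = 0.000485, edgeR). At 3 months it was 32.9-fold higher (5.04 ± 0.71, 95% interval 3.55 to 6.53, adjusted p = 3.45e-05, edgeR). Against sham uterus, where Igfbp2 was again the 1 member called at 1 month beside 15.0% of all genes, the rises were 15.8-fold at 1 month (3.98 ± 0.68, adjusted p = 0.00135) and 20.9-fold at 3 months (4.39 ± 0.69, adjusted p = 9.03e-05). The latter call was lost with a term for the replicate number (4.09, adjusted p = 0.105), when no gene of all tested was called. The change of the lesion-eutopic difference from 1 to 3 months was 0.29 ± 0.87 (adjusted p = 0.937), and it turned negative without lesion library 1 at 3 months (-0.15).

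Of 9 tested members, Igfbp2 was the only one called in lesions against eutopic uterus at 1 month, when 20.7% of all tested genes were called (2659 higher and 1948 lower). The median log2 fold change of the 9 was -0.05, against -0.01 over all tested genes. In per-length terms Igfbp2 made up 0.0327% of the binding protein sum at 1 month in eutopic uterus and 0.901% in lesions, and at 3 months the shares were 0.0371% and 2.06%, so it remained a minor binding protein transcript. In lesion library 1 at 3 months its share was 4.51%, and in library 2 it was 0.164%.

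The rise of Igfbp2 was called in all 14 alternatives at 1 month (log2 fold changes 4.53 to 4.89) and in all 15 at 3 months (4.58 to 5.40) against eutopic uterus. Its lowest lesion level, in library 2 at 3 months, stood beside the lowest sum of 6 epithelial genes (Cdh1, Cldn3, Epcam, Krt8, Krt18 and Krt19), 47.3 CPM, against 898 to 1116 CPM in eutopic uterus. Its highest, in library 1, stood beside an epithelial sum of 120 CPM and the ovarian steroid cell sum of 23006 CPM, which was 271 CPM in library 2. In libraries 3 and 4, with epithelial sums of 857 and 633 CPM, Igfbp2 was 21.0 and 27.2 CPM. At 1 month the epithelial sums of lesions were 762 to 898 CPM against 802 to 1369 CPM in eutopic uterus, and Igfbp2 was above uterine levels in all 4 lesions. The macrophage, T cell and adipocyte sums were also above eutopic uterus in these 4, whereas lesion library 1 at 3 months, with the highest Igfbp2, had a macrophage sum of 192 CPM and a T cell sum of 8.78 CPM, both below eutopic uterus. Which cells made the Igfbp2 transcripts was not tested.

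**Figure D3:**
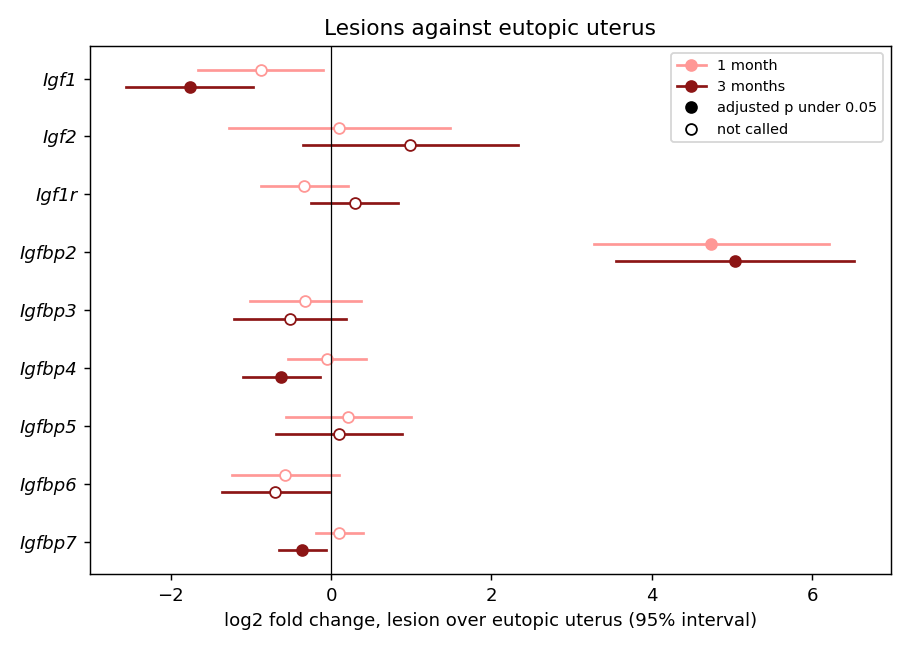
Log2 fold change of lesions over eutopic uterus (x axis, points, with 95% intervals as lines) for 9 genes (y axis) at 1 month (light) and 3 months (dark); filled points have an adjusted p under 0.05. Igfbp2 lies at 4.75 and 5.04, and at 3 months Igf1, Igfbp4 and Igfbp7 lie below 0 with filled points.

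At 3 months 4 of 9 tested members were called in lesions against eutopic uterus, Igfbp2 higher and Igf1, Igfbp4 and Igfbp7 lower, when 40.5% of all tested genes were called (5202 higher and 3811 lower). The share called among members was thus close to the background. The median log2 fold change of the members was -0.36, against 0.04 over all tested genes. The same 4 members were called in the same directions against sham uterus, a comparison that shares the lesion libraries and in which 41.6% of all genes were called.

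Igfbp4, which encodes the binding protein cut by PAPP-A and is abundant in stroma, was 794, 763, 707 and 782 CPM in eutopic uterus and 252, 856, 420 and 454 CPM in lesions at 3 months. Libraries 1, 3 and 4 of the lesions were below all 16 uterine libraries. Library 2, with the highest stromal and skeletal muscle sums, was above the eutopic range. Igfbp4 was 1.54-fold lower in lesions (-0.62 ± 0.23, adjusted p = 0.0386, edgeR) and 1.57-fold lower than in sham uterus (-0.65 ± 0.23, adjusted p = 0.0299). The first call was lost in 10 of 15 alternatives, among them leaving out any 1 eutopic library or lesion library 1, 3 or 4 (adjusted p from 0.0503 to 0.0930). Leaving out lesion library 2 moved it to -1.02 (adjusted p = 0.000313). The call against sham uterus was lost in 7 of 15, among them leaving out sham library 1 or 4 or lesion library 1, 3 or 4 (0.0572 to 0.0733). At 1 month Igfbp4 was 852, 807, 808 and 764 CPM in eutopic uterus and 954, 575, 813 and 775 CPM in lesions, with no called difference (-0.05 ± 0.23, adjusted p = 0.893).

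Igfbp7, the weak IGF binder of vessels and stroma, was 576, 561, 541 and 479 CPM in eutopic uterus and 335, 529, 423 and 393 CPM in lesions at 3 months. Lesion library 2 lay within the eutopic range and the other 3 below all uterine libraries. The fall was small, 1.28-fold against eutopic uterus (-0.36 ± 0.14, adjusted p = 0.0450, edgeR) and 1.30-fold against sham uterus (-0.38 ± 0.14, adjusted p = 0.0332). The first call was lost in 12 of 15 alternatives, with adjusted p up to 0.257, among them DESeq2 (0.0626) and leaving out eutopic library 1, 2 or 3 or lesion library 1, 3 or 4 (0.0674 to 0.123). The call against sham uterus was lost in 9 of 15, among them leaving out sham library 1, 2 or 3 or lesion library 1, 3 or 4 (0.0511 to 0.0930). At 1 month lesions had 721, 478, 639 and 539 CPM and eutopic uterus 585, 572, 534 and 525 CPM, with overlapping ranges (0.10 ± 0.14, adjusted p = 0.641).

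Beside the lower Igfbp4 and Igfbp7, the summed level of 7 smooth muscle genes (Acta2, Actg2, Cnn1, Des, Myh11, Smtn and Tagln) was 2189, 2307, 6483 and 7120 CPM in lesion libraries 1 to 4 at 3 months. In eutopic uterus it was at least 7243 CPM, and no gene of the list was at 0. The genes of the list were not alike. Des was 105, 1503, 1103 and 1456 CPM in these lesion libraries, against 657 to 1268 CPM in eutopic uterus at 3 months. Acta2 was 803, 243, 1870 and 1730 CPM, against 2077 to 4532 CPM. The sum of 5 endothelial genes (Cdh5, Emcn, Kdr, Pecam1 and Tek) was 613, 487, 335 and 387 CPM in the same lesions against 497 to 714 CPM in eutopic uterus. Library 1, with the lowest Igfbp7, lay within the eutopic range and the other 3 below it. Their part in the differences was not tested.

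Igfbp3, the main carrier of IGFs in serum, was not called in any comparison. Its level was 101, 140, 199 and 124 CPM in eutopic uterus and 62.2, 126, 104 and 102 CPM in lesions at 3 months (-0.52 ± 0.33, adjusted p = 0.226, edgeR). At 1 month it was 264, 219, 185 and 159 CPM in eutopic uterus and 219, 123, 175 and 145 CPM in lesions (-0.32 ± 0.33, adjusted p = 0.520). The ranges overlapped at both times. Sham libraries ranged from 118 to 314 CPM at 1 month.

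Igfbp5, a binding protein of stroma and smooth muscle, had the largest SD of the tested members in lesions at 3 months, at 76.4% of its mean. Igfbp2 followed at 68.5%, and on a fold scale it spread more, from 3.89 to 43.4 CPM. At 3 months Igfbp5 was 618, 2237, 664 and 652 CPM in lesions and 1057, 851, 1202 and 778 CPM in eutopic uterus. Library 2 was above every uterine library and the other 3 lesions below every uterine library. The log2 fold change of 0.10 ± 0.38 (adjusted p = 0.852, edgeR) therefore depended on library 2, without which it was -0.59 (adjusted p = 0.137). At 1 month lesions had 1709, 843, 1228 and 1227 CPM and eutopic uterus 1818, 705, 996 and 795 CPM (0.21 ± 0.38, adjusted p = 0.719).

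Igfbp6, whose product prefers IGF2 over IGF1, was 233, 267, 285 and 230 CPM in eutopic uterus and 219, 128, 174 and 162 CPM in lesions at 1 month. All lesion libraries were below all eutopic libraries, with a difference that missed the threshold (-0.57 ± 0.32, adjusted p = 0.212, edgeR). It was called by limma voom (-0.59, adjusted p = 0.00551) and in a fit of the compared groups alone (-0.59, adjusted p = 0.0194), also with a term for the replicate number (-0.61, adjusted p = 0.0276).

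At 3 months Igfbp6 was 224, 266, 238 and 257 CPM in eutopic uterus and 45.8, 266, 129 and 168 CPM in lesions. Lesion library 2 again stood at the uterine level while the other 3 were below all eutopic libraries. The difference was -0.70 ± 0.32 (adjusted p = 0.0899, edgeR), and -1.10 without library 2 (adjusted p = 0.00923). Igfbp6 was also called by limma voom (-0.73, adjusted p = 0.0143) and without libraries 1 and 2 together (-0.76, adjusted p = 0.0168).

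Igfbp1, a marker of decidualized stroma in the human and a product of the liver, was too low to test. It had 1 count in sham and 0 in eutopic uterus and lesions at 1 month. At 3 months it had 2 counts in sham, 0 in eutopic uterus and 5 in lesions, 3 in library 1 and 2 in library 2. A count of 0 over the 4 libraries of a group allows a level of up to 0.0127 to 0.0146 CPM, counting error only. Markers of liver were low everywhere, with a sum of 7 genes of at most 16.6 CPM. This highest sum was in lesion library 1 at 3 months, and library 2 of that group had 11.1 CPM. Both are the lesion libraries with Igfbp1 counts. They were not alike in the liver gene Alb, which was 0.131 CPM in library 1 and 7.45 CPM in library 2, against at most 2.72 CPM in eutopic uterus. Lesion libraries 3 and 4 at 3 months had at most 1.14 CPM, and lesions at 1 month at most 4.77 CPM. Eutopic uterus at 1 month, with 0 counts of Igfbp1, had liver sums of 7.98 to 11.1 CPM. The part of liver transcripts in the Igfbp1 counts was not tested.

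Eutopic and sham uterus showed no called difference in any of the 9 tested members at either time. Of all tested genes, 0.00943% (2 of 21208) were called at 1 month and 0.00% at 3 months. With DESeq2 these were 15 and 11 genes. Over the 14 alternatives they reached 39 at 1 month and 11 at 3 months, and members called stayed at 0. The smallest adjusted p among members was 0.876 at 1 month and 0.992 at 3 months (edgeR, 16 uterine libraries), and no member had an unadjusted p under 0.05. Log2 fold changes ran from -0.93 (Igf2) to 0.22 (Igfbp6) at 1 month and from -0.66 (Igfbp2) to 0.29 (Igf1) at 3 months. For Igf1 the difference was -0.02 at 1 month (95% interval -0.61 to 0.57) and 0.29 at 3 months (-0.30 to 0.88). Igfbp7 at 1 month was 525 to 585 CPM in eutopic and 597 to 734 CPM in sham uterus, without overlap (-0.21 ± 0.10, adjusted p = 0.876). How many of all tested genes separate without overlap was not counted, for this or any other comparison.

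In sham uterus at 3 months against 1 month no member was called, and of all tested genes 0.00% were. Of all genes, 156 were called with DESeq2 and 430 with edgeR without sham library 1 at 3 months. Over the 14 alternatives this count reached 1036, and members called stayed at 0. Igfbp7 was the member with an unadjusted p under 0.05 (0.0495, adjusted p = 0.466, edgeR), at -0.22 ± 0.10. Igf1 was 771 to 909 CPM at 1 month and 285 to 1013 CPM at 3 months (-0.42 ± 0.28, adjusted p = 0.622). The lowest of these, sham library 4 at 3 months, also had the highest epithelial sum of its group, 1769 CPM against 717 to 1254 CPM in the other 3.

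Lesions at 3 months were set against lesions at 1 month as well. Igfbp7 was the 1 member of 9 called, when 10.9% of all tested genes were called (2435, but 1164 without lesion library 3 at 1 month and 3850 without lesion library 1 at 3 months), at 1.42-fold lower (-0.50 ± 0.14, adjusted p = 0.0258, edgeR). The lesions at 3 months (335 to 529 CPM) overlapped those at 1 month (478 to 721 CPM). The call was lost in 5 of 15 alternatives, without lesion library 1 (adjusted p = 0.102) or 3 (0.0797) at 1 month, with limma voom (0.0605), when only the compared groups were fitted (0.346) and with a term for the replicate number (0.508). Igf1 (-0.99 ± 0.37, adjusted p = 0.0911), Igfbp4 (-0.65 ± 0.23, adjusted p = 0.0743) and Igf1r missed the threshold, and all 3 were called without lesion library 2 at 3 months (Igf1 -1.39, Igfbp4 -1.04, Igf1r 0.90). Igfbp4 was also called without lesion library 2 at 1 month (adjusted p = 0.0441), and Igf1r without lesion library 3 at 3 months (0.0465). Leaving out other single libraries made the changes smaller, at the least -0.74 for Igf1, -0.44 for Igfbp4 and 0.16 for Igf1r. Adjusted p then reached 0.249, 0.200 and 0.538 (edgeR). In the change of the lesion-eutopic difference between the times, 0 of 9 members were called against 0.769% of all genes (171, but 14 without lesion library 1 at 1 month and 990 without lesion library 3 at 3 months). The smallest adjusted p there was 0.275 for Igfbp7 (-0.46 ± 0.20), the member with an unadjusted p under 0.05, and 0 members were called under DESeq2 or any other alternative.

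Other genes of the pathway were taken from lists of 41 genes, of which 38 passed the filter. In lesions against eutopic uterus, 8 were higher and 1 lower at 1 month, beside 20.7% of all tested genes called, and 15 were higher and 6 lower at 3 months, beside 40.5%. The share called at 1 month was close to the background. Fitted on the compared groups alone, 10 pathway genes were called at 3 months, and 2 with a term for the replicate number, when 3267 and 608 of all genes were. The median log2 fold change of the 38 was 0.13 at 1 month and 0.29 at 3 months, against -0.01 and 0.04 over all tested genes. Leaving out single libraries gave 3 to 8 called pathway genes at 1 month, with 3 without lesion library 2 or eutopic library 2, 4 without eutopic library 4 and 5 without eutopic library 3 or lesion library 4. At 3 months it gave 16 to 22. In eutopic against sham uterus 0 of 36 tested were called at either time.

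Among receptors and carriers, Insrr, the insulin receptor-related receptor, rose in lesions at both times. It was 0.707 ± 0.261 CPM in eutopic uterus and 2.97 ± 1.64 CPM in lesions at 1 month (2.07 ± 0.38, adjusted p = 0.00168, edgeR), and 0.719 ± 0.0589 and 2.63 ± 1.38 CPM at 3 months (1.87 ± 0.38, adjusted p = 0.000698). Neither Igf2r, which clears IGF2, nor the insulin receptor Insr was called. Igfals, the acid labile subunit that holds IGF and IGFBP3 in a serum complex, rose from 0.312 to 1.77 CPM at 1 month (2.50 ± 0.68, adjusted p = 0.0142). At 3 months it was 0.243, 4.61, 1.59 and 0.719 CPM in lesions, overlapping eutopic uterus (2.09 ± 0.67, adjusted p = 0.0164), and without library 2 it was not called (1.02, adjusted p = 0.183). It was not called either without eutopic library 2 (0.0539 at 1 month and 0.0544 at 3 months) or without eutopic library 4 at 3 months (0.0514). In all, the call of Igfals at 3 months was lost in 5 of 15 alternatives (adjusted p up to 0.414).

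Pappa2, the protease that cuts IGFBP3 and IGFBP5, was higher in all lesion libraries than in all eutopic libraries of the same time. It rose 3.27-fold at 1 month (1.71 ± 0.58, adjusted p = 0.0414, edgeR) and 8.74-fold at 3 months (3.13 ± 0.60, adjusted p = 0.000473). At 3 months library 2 had 8.69 CPM and the other lesions 1.08 to 2.40 CPM, and without library 2 the log2 fold change was 2.08 (adjusted p = 0.00243). The call at 1 month was lost when any 1 lesion library or eutopic library 2, 3 or 4 was left out (adjusted p from 0.0521 to 0.138).

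Igfbpl1, a gene related to the binding proteins, rose at both times (3.21 ± 1.03, adjusted p = 0.0329, and 3.35 ± 1.04, adjusted p = 0.0144, edgeR). The call at 1 month was lost without any 1 eutopic library or lesion library 2 or 4 (adjusted p from 0.0567 to 0.109). At 3 months 2.30 CPM in lesion library 3 carried it, with 1 count each in libraries 1 and 2, and without library 3 it was not called (1.40, adjusted p = 0.240). Adam12, a metalloprotease that cuts IGFBP3 and IGFBP5, fell at 3 months, from 114 ± 23.4 CPM in eutopic uterus to 28.9, 27.8, 30.0 and 19.7 CPM in lesions (-2.10 ± 0.29, adjusted p = 3.23e-05). The 4 lesions were close together and below all eutopic libraries. Adam12 also fell in lesions from 1 to 3 months (-1.51 ± 0.29, adjusted p = 0.00309), a call lost when only these groups were fitted (0.243) and with a term for the replicate number (0.245).

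The adaptors and kinases moved in both directions. Grb10, an adaptor that restrains insulin and IGF signalling, was lower in all lesions at 1 month (-0.58 ± 0.17, adjusted p = 0.0236, edgeR). At 3 months it was 128, 138, 157 and 97.0 CPM in lesions and 267 to 293 CPM in eutopic uterus (-1.09 ± 0.18, adjusted p = 0.000101), again lower in all lesions. Irs2, an insulin receptor substrate, was higher in all lesions at 3 months (1.43 ± 0.33, adjusted p = 0.00188). The catalytic subunit gene Pik3cb rose by 0.63 ± 0.21 and 1.10 ± 0.21, and Pdpk1 and Akt1 rose at 1 month by 0.40 ± 0.12 and 0.28 ± 0.08. The calls at 1 month of Grb10 (adjusted p = 0.0765), Pik3cb (0.101), Pdpk1 (0.0549) and Akt1 (0.0988) were each lost without lesion library 2, and each was also lost without 2 or more other single libraries. The regulatory subunit gene Pik3r3 fell at 3 months (-1.39 ± 0.28, adjusted p = 0.000604) and from 1 to 3 months in lesions (-0.98 ± 0.27, adjusted p = 0.0249). The latter call was lost in 7 of 15 alternatives (adjusted p up to 0.356). Among them were those without lesion library 1 or 3 at 1 month (0.0853 and 0.0911) or library 4 at 3 months (0.0558).

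Grb14, an adaptor that inhibits the insulin receptor, was called higher in lesions at 3 months (3.26 ± 0.75, adjusted p = 0.00186, edgeR). Its lesion levels were 213, 28.2, 6.61 and 5.54 CPM beside 5.94 to 8.36 CPM in eutopic uterus. Libraries 3 and 4 were at the uterine level, and without libraries 1 and 2 the difference was -0.15 (adjusted p = 0.664). Library 1 is the library with the ovarian steroid cell sum of 23006 CPM, and in library 2 that sum was 271 CPM.

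H19, the maternally expressed RNA next to Igf2, was 14.1, 265, 153 and 107 CPM in lesions at 3 months and 8.90 to 21.4 CPM in eutopic uterus. Libraries 2, 3 and 4, those with skeletal muscle transcripts, were above all eutopic libraries and library 1 was within their range. The difference was 3.23 ± 0.68 (adjusted p = 0.000905, edgeR). At 1 month lesions had 6.88 to 25.3 CPM and eutopic uterus 14.5 to 29.9 CPM, and H19 was the 1 pathway gene called in the change of the difference between the times (3.87 ± 0.91, adjusted p = 0.0490). That call was lost in 15 of 23 alternatives (adjusted p up to 0.130), among them leaving out lesion library 2 at 3 months (3.32, adjusted p = 0.0960), any 1 eutopic library, or lesion library 1, 3 or 4 at 1 month. Igf2 itself was at most 1.12 CPM in these lesions. The part of muscle content in the H19 level was not tested.

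Igf2bp3, an RNA-binding protein of the fetal IGF2 message, was almost unread in uterus, with 16 counts over eutopic libraries at 1 month and 4 at 3 months. In lesions it was 0.305, 2.77, 1.03 and 1.49 CPM at 1 month and 1.97, 2.63, 1.43 and 8.94 CPM at 3 months. It rose at both times (4.31 ± 0.91, adjusted p = 0.00377, and 7.44 ± 1.09, adjusted p = 4.37e-05, edgeR), the second size resting on the 4 counts in eutopic uterus. All lesions were above all eutopic libraries of their time. The insulin genes were not tested. Ins1 and Ins2 had 14.4 and 31.2 CPM in lesion library 2 at 1 month, the library with 91094 CPM of pancreas transcripts, and Ins2 had at most 2 counts and Ins1 0 counts in any other lesion library.

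**Figure D4:**
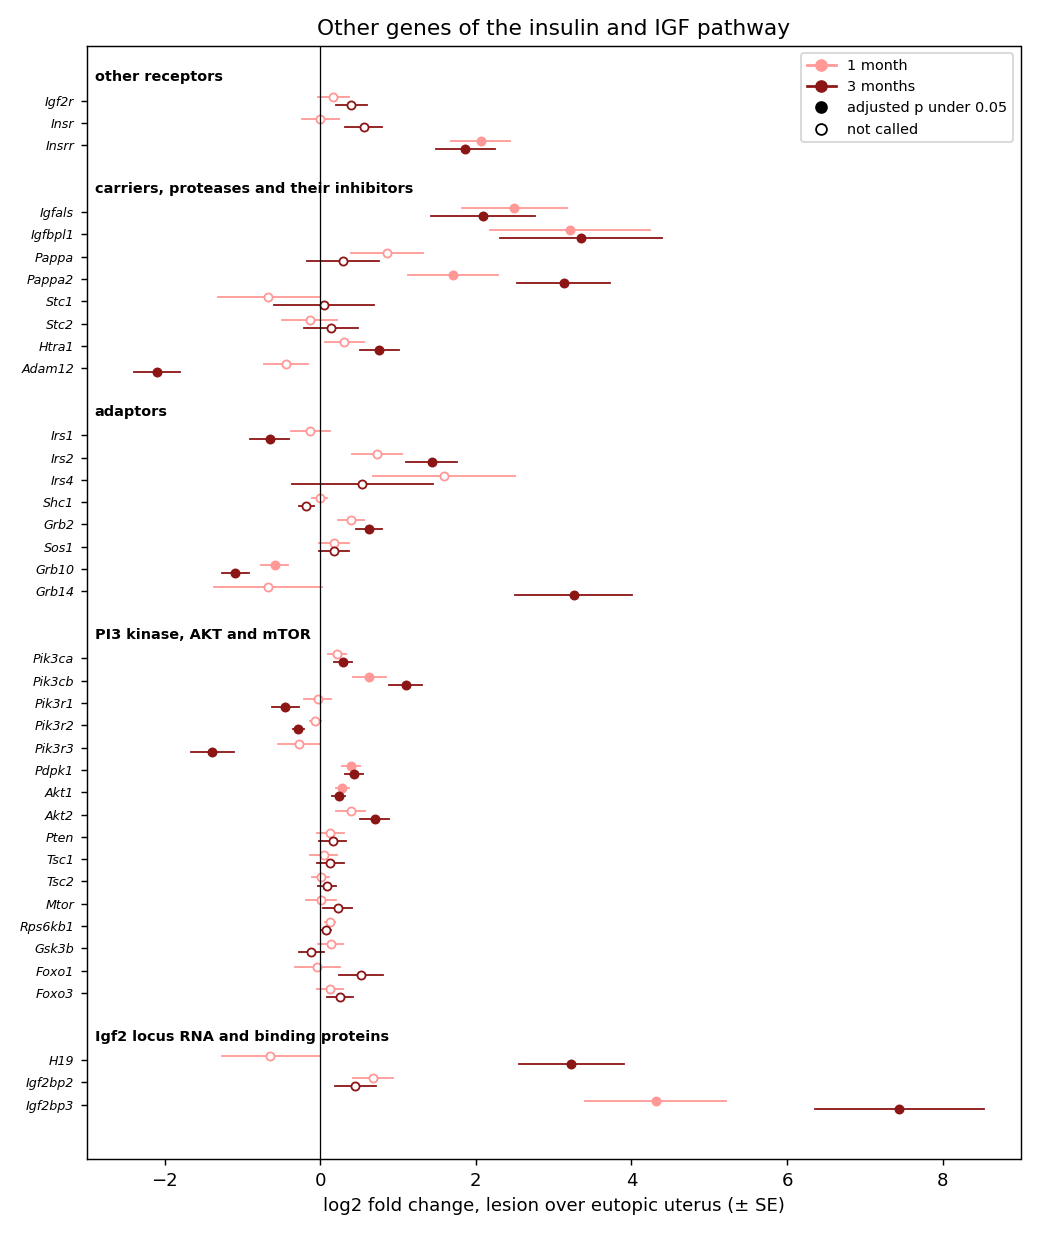
Log2 fold change of lesions over eutopic uterus (x axis, ± SE as lines) for the 38 tested pathway genes (y axis, by list) at 1 month (light) and 3 months (dark); filled points have an adjusted p under 0.05. At 3 months Igf2bp3 lies farthest to the right at 7.44 and Adam12 farthest to the left at -2.10.

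The genes whose levels over the 24 libraries were most like those of the 4 members called at 3 months were found by Pearson correlation of log2 CPM among 12901 genes. For Igfbp2 they were Pam (r = 0.947), Rerg (0.937) and Serpine2 (0.927). For Igf1 they were Scara5 (0.968), Rhoj (0.962) and Col15a1 (0.959). Osr1 (0.917), Spon2 (0.909) and Cd248 (0.908) were most like Igfbp4, and Adra1a (0.892) and Septin8 (0.874) most like Igfbp7. Lesion and uterine libraries entered together, and how far these values rest on the difference between them was not tested.

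Within the 8 lesion libraries, which cover both times and differ in other-tissue content, Igf1 levels ran with those of Igfbp7 (r = 0.958), Igfbp3 (0.950) and Igfbp4 (0.948). Within the 16 uterine libraries the same correlations were 0.656, 0.706 and 0.0807. Igfbp2 ran against Igf1 in both sets (-0.570 in lesions and -0.505 in uterus). These correlations are descriptions of level across libraries and carry no test.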

How the data were processed

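The authors deposited whole-number read counts per gene for 24 libraries, per the file headers. The submitters' processing notes name bcl2fastq 1.9.0, STAR 2.7.9a, edgeR and genome build mm39. Annotation release, counting mode and strandedness: not given in the sources used here. Counts of overlapping genes are therefore uncertain. The tests used edgeR 4.0.16 under R 4.3.3 (TMM, filterByExpr, quasi-likelihood F-test) over all 24 libraries (22249 genes tested), or over the 16 uterine libraries for comparisons within uterus (21208 genes). Genes with a p under 0.05 after Benjamini-Hochberg adjustment count as called. Libraries held 45133642 to 59407134 counts. The highest correlation of log2 CPM between any pair of libraries was 0.990, and all were kept as separate samples. Levels per length use exonic lengths of the GENCODE annotation of GRCm38, matched by Ensembl identifier for 10 of 10 members, since an annotation of mm39 was not used here. Alternatives were DESeq2 1.42.0, its size factors within edgeR, no filter, voom with sample weights in limma 3.58.1, a fit of the compared groups alone, a replicate block, each library left out, and no lesion libraries 1 and 2 at 3 months. The tests were checked on simulated counts, only for lesions against eutopic uterus and eutopic against sham uterus at 1 month. The simulated libraries carried no content of other tissues, so this check does not bear on lesions that differ in such content. Members and lists were chosen with earlier results of these data known. The rule for naming pathway genes took called ones, up to 12 per comparison by size of change, and for each member called against eutopic uterus the 3 genes of highest correlation with a mean log2 CPM of at least 1. Some genes that the lists or this rule hold are not reported here.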

Additional observations from a re-analysis of the deposited data

Results flagged for a closer look

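In 8 of 84 combinations of a gene and a group, 1 library stood apart from the other 3 of its group by Dixon's criterion, which chance meets in about 5% of groups. The combinations covered the tested members and, of the pathway genes, only H19, Grb14, Igf2bp3, Adam12 and Grb10. These pathway genes were picked and not drawn at random, so the count cannot be weighed against that rate. Among members, Igf2 was 0.561 CPM in eutopic library 1 at 1 month against 0.117 to 0.166 CPM in the others. Igf1r was 315 CPM in lesion library 1 at 3 months against 93.8 to 128 CPM. Igfbp5 was 1448 CPM in sham library 2 at 1 month against 981 to 1004 CPM, and 2237 CPM in lesion library 2 at 3 months against 618 to 664 CPM.

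Of the pathway genes searched, H19 was 31.3 CPM in sham library 1 at 3 months against 7.41 to 10.1 CPM. Grb14 was 8.36 CPM in eutopic library 3 at 3 months against 5.94 to 6.21 CPM, and 213 CPM in lesion library 1 at 3 months against 5.54 to 28.2 CPM. Igf2bp3 was 8.94 CPM in lesion library 4 at 3 months against 1.43 to 2.63 CPM.

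The lesion-eutopic difference of H19 changed between 1 and 3 months by 3.87 ± 0.91 on the log2 scale (adjusted p = 0.0490, edgeR), from a lower mean in lesions at 1 month to a higher one at 3 months.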

How the results depend on the processing

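Against eutopic uterus, Igfbp2 was called under all alternatives run at both times. The count of called members at 1 month (1) became 3 with voom, 4 with only the compared groups and 4 with the replicate block, Igf1 and Igfbp6 being added in each, while all genes called (4607) became 10013, 6744 and 6834. The member count stayed at 1 without any single library. At 3 months (4) it became 2 with DESeq2 size factors, 2 with only the compared groups and 1 with the block, where all genes called (9013) became 9073, 3267 and 608. It was 2 to 5 without single libraries. Against sham uterus the count at 1 month (1) became 3 with voom, with only the compared groups and with the block, beside 7695, 5889 and 4819 of all genes (3336). At 3 months (4) it became 1 with only the compared groups (2600 of all genes, against 9257) and 0 with the block (0 of all genes), and 2 to 5 without single libraries. For lesions at 3 months against 1 month (1) it became 0 with only the compared groups and with the block, where no gene of all was called, 2 without lesion libraries 1 and 2 at 3 months, and 0 to 4 without single libraries. The replicate numbers were not taken to pair the libraries, since not every same-numbered pair had a correlation of deviations over 0.1. The values were 0.0735 to 0.191 (lesion and eutopic, 1 month) and from 0.00343 to 0.337 (3 months). Of these, 4 and 3 of 4 correlated best with their own number, against 0 to 2 of 4 in the other comparisons between groups. That is a hint of pairing of lesion and eutopic libraries from the data and not from the design. The main tests do not model such pairing. Pathway genes called at 1 month (9) became 18 with voom, 16 with only the compared groups and 14 with the block, and at 3 months (21) 10 with only the compared groups and 2 with the block.

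Directions turned for values that were not called, except Grb14. In lesions against eutopic uterus at 3 months, without lesion libraries 1 and 2, Grb14 became -0.15, Igf1r -0.14 and Igfbp5 -0.59. With voom Igf1r became -0.14 and Igfbp5 -0.35, and with the block Igfbp5 became -0.14. Igfbp2 in eutopic against sham uterus at 1 month became 0.17 with voom. Without single libraries, lesions against eutopic uterus ran at 1 month from -0.16 to 0.89 (Igf2), from -0.17 to 0.058 (Igfbp4) and from -0.015 to 0.18 (Igfbp7), and at 3 months from -0.23 to 0.49 (Igf1r) and from -0.59 to 0.28 (Igfbp5). Igfbp2 ran from -0.030 to 0.80 in lesions at 3 months against 1 month and from -0.15 to 0.66 in the change of the difference. Eutopic against sham uterus ran from -0.23 to 0.11 (Igf1, 1 month) and from -0.10 to 0.035 (Igfbp7, 3 months). The cause was not tested. Depth limits Igfbp1 and Igf2, which rest on few counts.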
